A study of Mus musculus with 8 samples.

Results

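Suprabasal keratins and the enzymes and proteins that build the cornified envelope were followed as a set of 10 genes in newborn mouse epidermis. The set held the keratin genes Krt1, Krt10, Krt2, Krt77 and Krt80, the transglutaminase genes Tgm1 and Tgm3, the envelope protein genes Ivl and Lor, and the protease gene Casp14. A gene belonged to the set by name, and its probes were found through the RefSeq accession printed for each probe on the array. This gave 14 probes for the 10 genes, of 36799 genes and other targets on the array, and all 10 were among the 23135 targets that passed the filter on dim probes.

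Epidermis peeled from back skin at postnatal day 0 (P0) was compared between mice with an epidermal knockout of Eed (EED cKO, K14-Cre; EED flox/flox) and control mice, all labelled strain C57BL/6. Each genotype had 4 biological replicates, and each RNA was hybridized on its own 2-colour Agilent array against Universal Mouse Reference RNA, a pool that was the same on every array. K14-Cre is driven by the promoter of keratin 14, so deletion is limited to keratinocytes and their descendants and other cells of the peeled sheet keep the gene. The labels call the control mice controls and give no alleles for them.

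Keratinocytes that leave the basal layer replace the keratin pair Krt5 and Krt14 by Krt1 and Krt10, and later add Krt2, a keratin of the upper layers. Beneath the membrane of the dying cell, transglutaminases join glutamine to lysine residues of proteins such as involucrin and loricrin, which gives the insoluble cornified envelope, and caspase-14 helps to break down filaggrin in the cornified layer. Eed is a core subunit of Polycomb repressive complex 2, which places a repressive methyl mark on histones.

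Values are log2 ratios of epidermis over reference RNA on 1 array, so a log2 ratio of 0 is the level of the reference pool, and they compare arrays for 1 probe and not 1 gene with another. The log2 fold change is the difference of these ratios between EED cKO and control, fitted by limma with the dye of the sample as a covariate, and a gene was called when its Benjamini-Hochberg adjusted p over all 23135 targets was below 0.05. In whole epidermis, more cells of a layer and more RNA per cell cannot be told apart.

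The labels were first checked against the deleted gene. The log2 ratio of Eed was -1.74, -2.04, -1.78 and -1.66 in EED cKO replicates 1 to 4 and -0.18, -0.46, -0.31 and -0.43 in control replicates 1 to 4. Eed fell by 1.46 on the log2 scale (SE 0.09, limma adjusted p = 2.13e-05). In the sample channel, 51.5% to 65.5% of spots were well above background, and no spot of a member was saturated. All 8 arrays lay on 1 slide, with the EED cKO arrays in row 1 and the controls in row 2, so that genotype and slide row cannot be told apart, and the replicate number marked both the slide column and the dye. The samples of replicates 1 and 3 carried Cy3 and those of replicates 2 and 4 carried Cy5. The mean log2 ratio of 4 Y-linked genes was 1.19 and 1.02 in control replicates 2 and 3 and between -1.51 and -1.31 on the other 6 arrays. In the channel of the reference RNA, which should not differ by genotype, 111 of the 23135 targets were called.

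Of the 10 members, 3 were called and all 3 were higher in EED cKO: Krt2, Krt77 and Tgm1. Over all targets 21.7% were called, 11.8% as higher and 9.96% as lower in EED cKO. With median centring in place of loess, the calls over all targets were 1015 higher and 1540 lower, against 2726 and 2304. Krt2 alone among the members was also changed at least 2-fold, as 1.2% of all targets were. The 4 EED cKO values lay clear of the 4 control values for the same 3 genes, which 17.2% of all targets also showed. The log2 fold change was above 0 for 9 of the 10 members and for 12448 of the 23135 targets, with a median of 0.18 beside 0.02 over all targets. Within the arrays of 1 dye alone, which leaves 2 against 2, no member was called in Cy3 (adjusted p = 0.0517 for Krt2, the lowest) and 1 was called in Cy5, again Krt2. Over all 23135 targets, 495 were called within Cy3 and 2466 within Cy5. Within both dyes 9 members were higher in EED cKO, most of them not called and some by little, as Casp14 by 0.05 in Cy3. This was not counted over all targets, so it has no share to be read beside.

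The stretches of genome before the start of 4 members are shown: Krt2 and Krt77, which were called, and Ivl and Lor, which were not. The called gene Tgm1 and the uncalled Krt10, Tgm3 and Casp14 were searched but are not printed. They are the 120 bases before a RefSeq start on the gene's own strand, here the minus strand of GRCm38.p6, with matches to an AP-1 motif (TGANTCA) or to TATAAA in capitals. The starts used for Krt2 and Ivl lie inside the annotated span of the gene, which ends at 101818956 and 92573790. Those used below for Krt10, Tgm1, Tgm3 and Casp14 also lie inside the span.
Krt2, chr15:101818170-101818289: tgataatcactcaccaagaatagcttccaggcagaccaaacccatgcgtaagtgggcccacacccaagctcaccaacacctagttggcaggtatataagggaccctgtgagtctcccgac
Krt77, chr15:101869706-101869825: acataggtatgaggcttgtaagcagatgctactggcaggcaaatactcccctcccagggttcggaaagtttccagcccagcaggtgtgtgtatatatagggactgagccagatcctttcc
Ivl, chr3:92573736-92573855: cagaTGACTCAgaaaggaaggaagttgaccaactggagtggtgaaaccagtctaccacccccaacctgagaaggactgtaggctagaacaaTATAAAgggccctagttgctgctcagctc
Lor, chr3:92083143-92083262: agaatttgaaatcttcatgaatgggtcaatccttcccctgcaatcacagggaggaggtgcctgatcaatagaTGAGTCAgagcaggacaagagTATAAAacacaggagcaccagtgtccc
Both strands were searched over the 250 bases before each start, in 9 windows of the 8 members with an entry, since Tgm1 has 2. The AP-1 letters, which read the same on both strands apart from the free middle base, began 116 bases before the start of Ivl and 48 bases before that of Lor, and 2 of the 9 windows held them, beside 6.75% of 32841 windows of all genes. TATAAA stood 26 to 29 bases before the start of Krt10, Tgm3, Ivl and Lor, 4 of 9 windows beside 12.4% of all. A grainyhead motif (AACNGGTT) was in 0 of the 9 windows and in 1.79% of all windows. None of the 3 called members held any of these exact letters in its windows, and neither did Casp14, which was not called. Near matches, such as the tatata stretches printed for Krt2 and Krt77, were not counted. A match here describes letters only and says nothing of binding. Ivl and Lor, printed above, were the only members with an AP-1 match, and whether the letters go with the calls was not tested.

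Among the suprabasal keratins, Krt1 and Krt10, the pair that fills the spinous cell, did not pass the test, and Krt2 and Krt77 rose. The log2 ratio of Krt1 was 4.35, 4.96, 4.38 and 5.20 in EED cKO replicates 1 to 4 and 4.30, 4.97, 4.27 and 4.90 in control replicates 1 to 4. The values overlapped throughout and followed the dye, with both genotypes near the lower values in Cy3 and near the higher ones in Cy5. Krt1 had a log2 fold change of 0.11 (SE 0.07, 95% interval -0.06 to 0.27, limma adjusted p = 0.324), which leaves a 2-fold change in either direction outside the interval.

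For Krt10, the partner of Krt1, the log2 ratios were 3.05, 3.81, 3.03 and 4.19 in EED cKO and 2.91, 3.88, 2.83 and 3.89 in control. The 2 genotypes overlapped, and the mean of the Cy5 arrays exceeded that of the Cy3 arrays by 0.98 on the log2 scale, against a genotype difference of 0.14 (SE 0.09, 95% interval -0.05 to 0.34, limma adjusted p = 0.279). A further Krt10 probe gave 0.03 (SE 0.08). Without the reference, on the sample channel alone, the log2 fold change of Krt1 was -0.14 and that of Krt10 was -0.27, neither called.

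Krt2, a type II keratin that joins Krt10 in the upper spinous and granular layers, rose in EED cKO. Its representative probe, the one with the higher mean signal, read 2.06, 2.53, 2.32 and 2.62 in EED cKO and 1.37, 1.39, 1.55 and 1.21 in control. Every EED cKO array lay above every control array. The log2 fold change was 1.00 (SE 0.12, 95% interval 0.73 to 1.28, limma adjusted p = 0.00102), a ratio of 2.00, and the two-sided exact permutation test over the 8 arrays gave p = 0.0286, the smallest that 4 against 4 allows. That test took no account of the dye, and groups that do not overlap always give this p. The log2 fold change was 0.73 within Cy3 (adjusted p = 0.0517) and 1.27 within Cy5 (adjusted p = 0.00641).

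The other Krt2 probe showed a much larger difference than the representative one. Its log2 ratios were 3.33, 4.28, 3.64 and 2.99 in EED cKO and 0.03, 0.62, 0.00 and 0.45 in control, with a log2 fold change of 3.29 (SE 0.23, limma adjusted p = 4.73e-05). This probe cleared background on each of the 4 EED cKO arrays but on 2 of the 4 control arrays, so that the control level is partly background. The processed signal of the epidermis ranged from 1329 to 4810 in EED cKO and from 7.97 to 62.4 in control. The reference channel moved with it, although the reference RNA was the same, from 24.3 to 90.4 beside the EED cKO samples and from 4.09 to 5.83 beside the controls. After normexp with an offset of 50, which shrinks differences between such dim signals, and quantile normalization, the reference channel of this probe differed by 0.59 on the log2 scale (SE 0.10, limma adjusted p = 0.0289). The other probe stayed between 2.52 and 3.78 under every alternative background correction or normalization tried, and the mean of both probes gave 2.14. Which of the probes follows Krt2 transcript more closely was not tested.

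**Figure D1:**
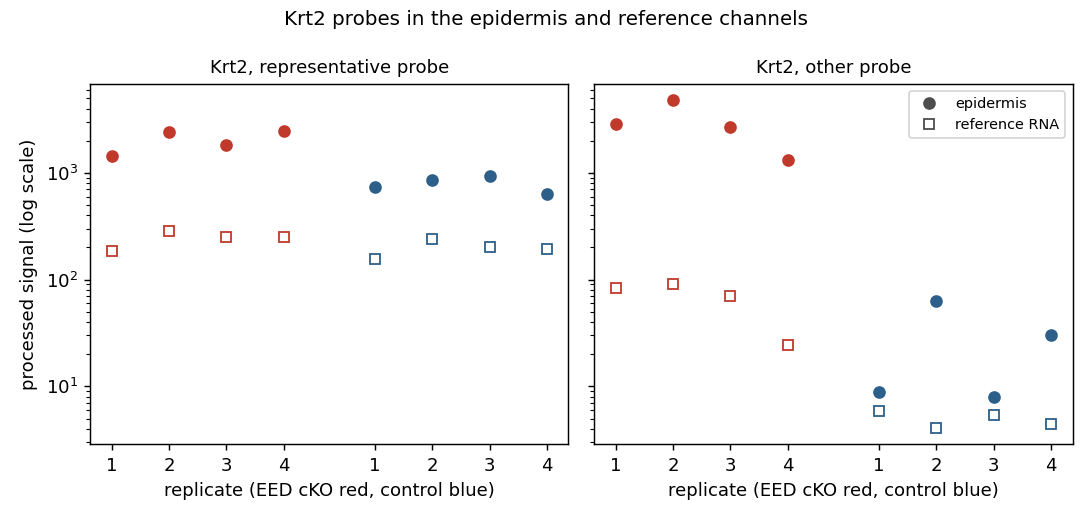
Processed signal, on a log axis, of the 2 Krt2 probes on each array, with filled circles for epidermis and open squares for the reference RNA, EED cKO in red and control in blue. On the representative probe the epidermal signal was higher in EED cKO over a reference signal of 156 to 287, whereas on the other probe both channels were higher on the EED cKO arrays.

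Krt77, a type II keratin of suprabasal epidermis and eccrine ducts, rose by a smaller amount. The log2 ratios were 1.45, 2.25, 1.49 and 1.68 in EED cKO and 1.26, 1.28, 1.20 and 1.25 in control. The controls lay close together (SD 0.04, n = 4) and below all EED cKO arrays, of which replicate 2 stood highest. Krt77 had a log2 fold change of 0.47 (SE 0.13, 95% interval 0.17 to 0.77, limma adjusted p = 0.0321). Its reference signal was 17.0 to 26.8, well above background on only 5 of the 8 arrays. With offset 0 the log2 fold change was 0.74 (limma adjusted p = 0.0320), so its size depends on the offset. It was 0.24 within Cy3 (limma adjusted p = 0.271) and 0.70 within Cy5 (limma adjusted p = 0.0653). The call was lost without EED cKO replicate 3, control replicate 2 or control replicate 4 (adjusted p = 0.0579, 0.0993 and 0.0797), and the value was 0.31 without EED cKO replicate 2 (adjusted p = 0.0284).

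Krt80, a type II keratin that appears late in many differentiating epithelia, gave 0.67, 0.81, 0.63 and 0.55 in EED cKO and 0.25, 0.62, 0.55 and 0.32 in control. EED cKO was higher in 4 of 4 slide columns, but the groups overlapped. The log2 fold change of 0.23 (SE 0.10, 95% interval 8.28e-05 to 0.46) did not pass the test (limma adjusted p = 0.139).

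Of the crosslinking enzymes, Tgm1 rose and Tgm3 did not pass the test. Tgm1 encodes the membrane-bound transglutaminase that anchors the first envelope proteins. Its log2 ratios were 3.56, 3.91, 3.74 and 3.78 in EED cKO and 2.98, 3.56, 3.56 and 3.24 in control. The lowest EED cKO value and the highest control value differed only beyond the second decimal, so the groups did not overlap by a narrow margin. Tgm1 had a log2 fold change of 0.41 (SE 0.13, 95% interval 0.13 to 0.70, limma adjusted p = 0.0456), with an exact permutation p of 0.0286, which follows from the lack of overlap. This call was the least stable of the 3: of the 8 fits that left out 1 array, it was kept only without control replicate 3 (adjusted p = 0.00976), and the other 7 gave adjusted p from 0.0640 to 0.119.

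Tgm3, the cytosolic transglutaminase that crosslinks small proline-rich proteins and loricrin, gave 0.07, 0.13, 0.17 and 0.14 in EED cKO and 0.18, 0.10, 0.08 and 0.14 in control. The arrays of both genotypes were mixed, and the log2 fold change was -0.0012 (SE 0.06, 95% interval -0.15 to 0.14, limma adjusted p = 0.992). A further probe gave -0.05 (SE 0.15). On the representative Tgm3 probe the interval is the narrowest in the set and lies within 0.15 of 0 on the log2 scale. That probe had similar signal in both channels, 2897 to 3899 in epidermis and 2458 to 3225 in the reference. On the further probe the reference signal was 47.0 to 103 and the log2 ratios were 2.17 to 2.74. Which of the probes follows Tgm3 transcript more closely was not tested.

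The envelope proteins did not pass the test. Ivl encodes involucrin, an early scaffold protein of the envelope, and had log2 ratios of 3.16, 2.99, 3.09 and 2.57 in EED cKO. In control replicates 1 to 4 they were 1.88, 2.97, 3.25 and 2.34. The controls spread widely (SD 0.62, n = 4, beside 0.27 in EED cKO), with replicate 3 above all EED cKO values, replicate 2 among them, and replicates 1 and 4 below them. EED cKO exceeded control by 0.34 (SE 0.27, 95% interval -0.26 to 0.94, limma adjusted p = 0.401), the widest interval in the set, and it was 0.02 without control replicate 1. A further Ivl probe gave 0.24 (SE 0.25).

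Control replicates 2 and 3 were also the arrays with a high Y-linked level, and they were the higher pair of controls for Krt80 and Tgm1 too. With the mean Y-linked log2 ratio as a covariate, Ivl had a log2 fold change of 0.79 (limma adjusted p = 0.0301) and Krt80 one of 0.37 (limma adjusted p = 0.0381). In the same fit Tgm1 had 0.62 (limma adjusted p = 0.00680) and Krt2 1.09 (limma adjusted p = 0.00258), while Krt77 with 0.46 lost its call (limma adjusted p = 0.103). No EED cKO array had a high Y-linked level, so that this fit sets EED cKO mainly against control replicates 1 and 4. Whether the sex of the animals had a part in the spread of these controls was not tested.

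Lor encodes loricrin, the main protein of the mature envelope. Its log2 ratios were 5.13, 5.77, 5.24 and 5.91 in EED cKO and 5.10, 5.85, 5.06 and 5.65 in control. They overlapped and divided by dye like those of Krt1 and Krt10, with Cy5 arrays 0.66 above Cy3 arrays. For Lor the difference was 0.10 on the log2 scale (SE 0.07, 95% interval -0.07 to 0.26, limma adjusted p = 0.391).

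Casp14, the protease of cornification, gave log2 ratios of 3.60, 3.98, 3.85 and 4.10 in EED cKO and 3.70, 3.82, 3.66 and 3.92 in control. The groups overlapped, and the log2 fold change was 0.11 (SE 0.08, 95% interval -0.07 to 0.29, limma adjusted p = 0.358). The processed signals behind these ratios did not lie level: epidermal signal ranged from 9934 to 16134 in EED cKO and from 12259 to 21381 in control, and reference signal from 385 to 825 and from 633 to 1502. On average both channels were lower on the EED cKO arrays, with overlapping ranges. On the sample channel alone the log2 fold change was -0.70 (SE 0.23, limma adjusted p = 0.0656), and in the reference channel, treated in the same way, it was -0.73 (SE 0.20, limma adjusted p = 0.286). The direction for Casp14 also turned with median centring (-0.12), and the part of the reference signal in this was not tested.

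**Figure D2:**
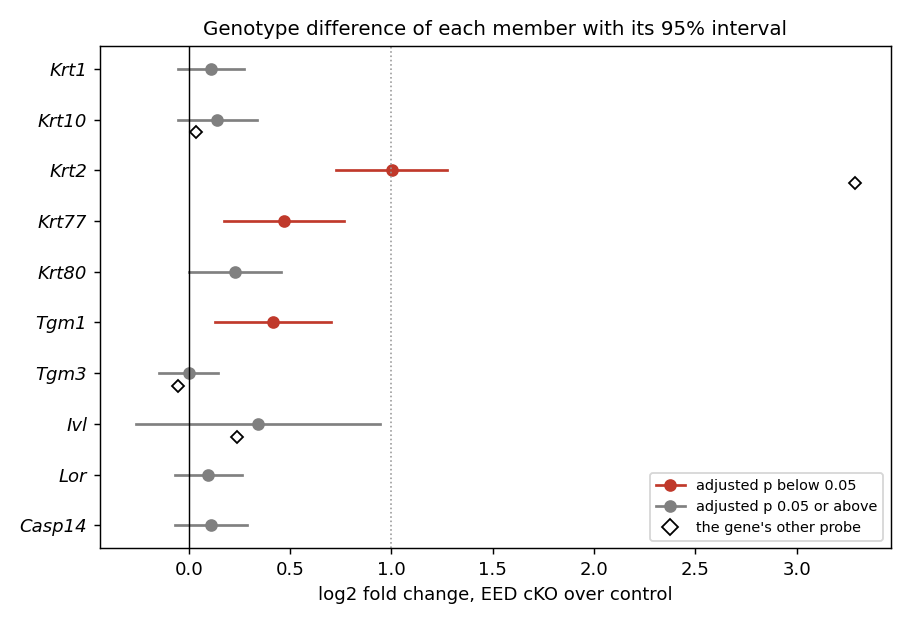
Log2 fold change of EED cKO over control for the 10 members, with the 95% interval of the limma fit; red marks an adjusted p below 0.05, open diamonds mark the other probe of a gene, and the dotted line marks a 2-fold rise. Krt2 lies on the 2-fold line with its other probe at 3.29, Krt77 and Tgm1 lie between 0.41 and 0.47, and the intervals of Krt1, Krt10, Tgm3, Lor and Casp14 hold 0 and end below 0.34.

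**Figure D3:**
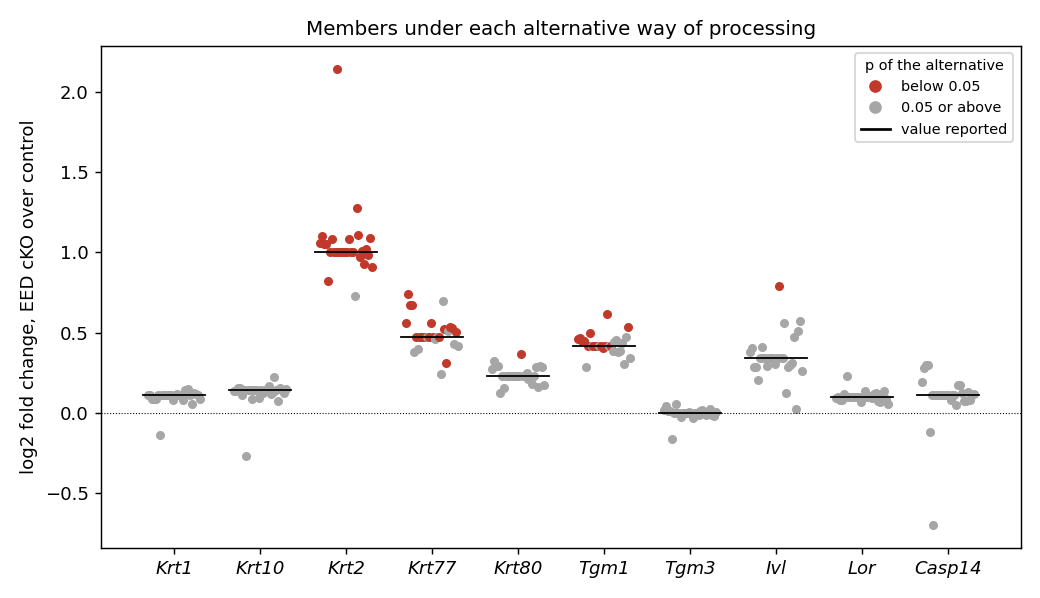
Log2 fold change of each member under 28 alternative ways of processing or testing, with red for a p below 0.05 by that alternative's own rule and a black line for the value reported. Krt2 was called in 27 of the 28, Krt77 in 18 and Tgm1 in 15, and the 2 lowest points belong to Krt10 and Casp14 on the sample channel alone. Some of the 28 keep the reported fold change by construction, and Aquantile keeps the p as well.

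How the members varied together was described by the Pearson correlation of their log2 ratios over the 8 arrays after the dye effect was removed, values that share slide, reference and genotype. The highest correlations were those of Krt1 with Krt10 (0.92) and with Lor (0.82), of Krt80 with Tgm1 (0.91) and with Ivl (0.88), of Krt2 with Krt77 (0.83) and with Tgm1 (0.82), and of Tgm1 with Ivl (0.82). The lowest was that of Tgm3 with Ivl, at -0.74. Outside the set, the genes most like Krt10 were Zap70, Pitx3 and Echdc2 (0.97 to 0.98), and those most like Lor were Rab11fip2, Bckdhb and Mras (0.92 to 0.94). Those most like Tgm1 were Cpe, Acbd4 and Pld2 (all 0.99), but 86 genes were above 0.95 with it.

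Other genes of cornification were read from 5 further lists, given here as counts, to be read beside the 11.8% of all targets called higher and the 9.96% called lower. The lists were chosen with earlier results of these data known, so their counts describe the listed genes and are no test of a list. Of 31 tested partners of the cornified envelope, 8 rose and 0 fell, 4 of them at least 2-fold, with a median log2 fold change of 0.19, nearly that of the members. Among them, 2 substrates of transglutaminases rose most: Sprr1a by 1.56 (SE 0.23, limma adjusted p = 0.00227) and Sprr1b from a mean of 4.18 in control to 5.68 in EED cKO (SE of the difference 0.28, limma adjusted p = 0.00627), both small proline-rich cross-bridging proteins. Rptn (1.48), Lce3c (1.12) and Sprr2h (0.78) followed, where Rptn encodes repetin, an S100 fused-type protein, and Lce3c a late cornified envelope protein. These families have close relatives, and whether a probe also binds a relative was not tested. The call of Lce3c depended on the signal used, since the deposited log2 table gave 0.27 (limma adjusted p = 0.234). Evpl, Ppl and Dsp, which encode the plakins of the envelope and desmosome, had log2 fold changes of 0.11, -0.12 and -0.01 and were not called; they and the transglutaminases in the next sentence were picked out after their values were seen. Tgm2 gave 0.26 and Tgm5 -0.57, also not called (limma adjusted p = 0.0685 and 0.135).

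Of 14 tested proteases, deiminases and inhibitors of the envelope, 7 rose and 1 fell, with a median of 0.36. The kallikrein gene Klk6 (0.87), the peptidylarginine deiminase gene Padi4 (0.80), and the inhibitor genes Cst6 (0.69) and Spink5 (0.58) rose, and Csta1, a stefin gene, fell by 0.55. A further Padi4 probe gave 0.13. Of the other deiminase genes in the list, Padi3 rose (0.35, limma adjusted p = 0.0354) and Padi1 was not called (0.06, limma adjusted p = 0.624). Both were named after their values were seen. Without EED cKO replicate 3 or 4, or without control replicate 2, 4 genes of this list were called, and without control replicate 1 or 4 it was 5.

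Of 27 tested regulators of terminal differentiation, 1 rose and 7 fell, with a median of -0.13. Among those that fell were Fosl2, an AP-1 subunit (-0.96), Klf4, a barrier regulator (-0.70), Satb1 (-0.65) and Gata3 (-0.52), while a further Fosl2 probe gave -0.30 (limma adjusted p = 0.0788). The gene that rose was Hopx (0.44), named after its value was seen. Of 13 tested basal genes, 0 rose and 7 fell, with a median of -0.33. They included the P-cadherin gene Cdh3 (-0.90), the hemidesmosome integrin genes Itga6 (-0.74) and Itgb4 (-0.51), and the laminin-332 genes Lama3 (-0.52) and Lamb3 (-0.41). The basal keratins Krt5 (0.06) and Krt14 (0.10) were not called, as was the case for their suprabasal successors Krt1 and Krt10. The basal count fell from 7 to 4 without EED cKO replicate 1, 2 or 4 or control replicate 3, and to 3 without control replicate 2.

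Of 15 tested other epithelial keratins, 11 rose and 0 fell, with a median of 0.47, which is near the value of Krt77, above those of Krt1, Krt10 and Krt80 and below that of Krt2. The wound keratin genes Krt6b (3.39) and Krt6a (2.74) and the simple epithelial keratin genes Krt7 (3.00), Krt20 (1.12) and Krt19 (0.68) rose most, and a further Krt6b probe gave 0.73. Krt6a and Krt6b are near-identical copies, so the values of each may hold signal of the other. Krt6a was 1.12 in the deposited log2 table (limma adjusted p = 0.0677).

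**Figure D4:**
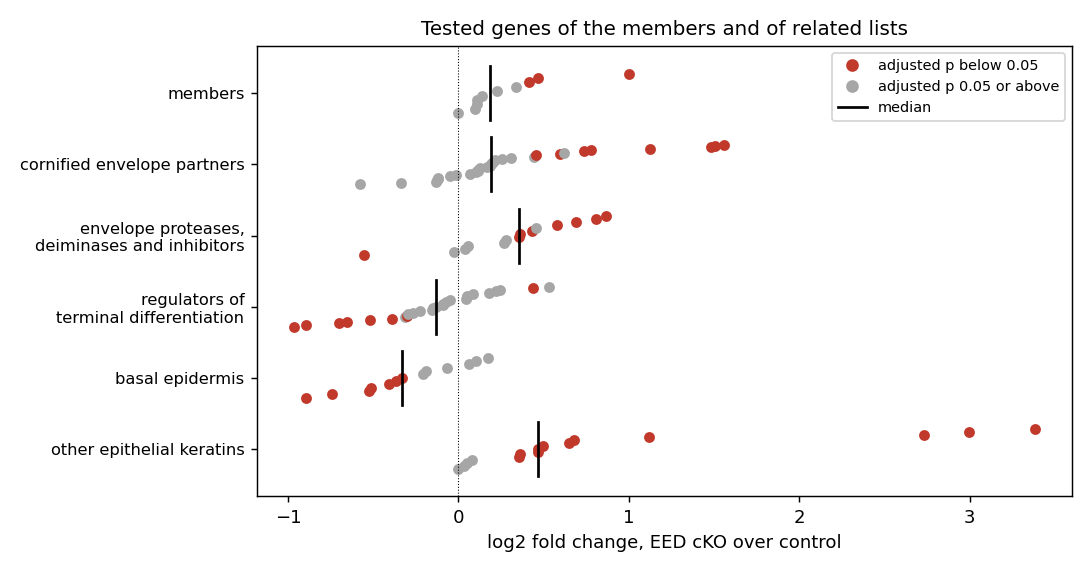
Log2 fold change of EED cKO over control for the tested genes among the members and in 5 related lists, 1 point a gene, red where the limma adjusted p was below 0.05, with a black line at each median. The medians run from -0.33 for basal genes to 0.47 for other epithelial keratins, and the members, at 0.18, resemble the envelope partners at 0.19.

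Markers of other cells moved as follows beside these results. All 6 Merkel cell markers, of which Krt8, Krt18 and Krt20 also stand in the keratin list, rose, with a mean log2 ratio of -0.95 to -0.82 in EED cKO and -1.67 to -1.53 in control. Of the others tested, 2 of 7 hair shaft and inner root sheath genes, 2 of 4 immune genes, 2 of 2 endothelial genes, 1 of 6 fibroblast genes and 1 of 2 adipocyte genes rose, and 1 of 3 Schwann cell genes fell. Markers that did not pass the filter are left out of these counts. Among them were the endothelial genes Cdh5 and Tek, above background on no array, the adipocyte genes Adipoq and Cfd, and the immune gene Cd207. No muscle (2) or melanocyte (6) gene was called. The 3 erythroid genes were not called either, but they had the largest median log2 fold change of these lists, 1.21, with mean log2 ratios of 1.51 to 3.24 in EED cKO and 0.70 to 2.92 in control. Mean log2 ratios of the fibroblast list were -3.07 to -2.93 in EED cKO and -3.22 to -2.88 in control, far below the reference, whereas those of the hair list were 1.80 to 2.10 and 1.18 to 2.28. The part of these cells in the values of the members was not tested.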

How the data were processed

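RNA of peeled P0 epidermis was measured on 8 two-colour arrays, 4 EED cKO and 4 control. The authors deposited the scanner tables of Agilent Feature Extraction 12.0.1.1, with spot intensity in both channels and a log10 ratio of red over green, and a log2 table that matched that ratio turned to sample over reference (r from 0.997 to 0.999, column medians 0.03 to 0.14). The median spot intensities were corrected with normexp (offset 50, which draws the ratios of dim probes toward 0), normalized by loess within each array with control spots at weight 0, and turned for the dye swap in limma 3.58.1 (R 4.3.3). Spots of a probe were averaged after outlier spots were left out, and 19 missing values, 0 of them of members, were filled with the mean of their genotype. A gene was represented by its probe with the highest mean signal and tested where the epidermal signal of that probe cleared background on 3 or more arrays of either genotype. Of 29796 probes with a RefSeq accession, 28026 matched a gene of GRCm38.p6. The model held genotype and dye, with Benjamini-Hochberg adjustment over 23135 targets, and was tested on simulated data. Depth is not defined for arrays, and their number limits the precision.

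The members and gene lists were chosen with earlier results of these data known. Named were the 10 members, Eed, up to 5 called genes of largest fold change from each of 5 lists, and the 3 genes most correlated with each of Krt10, Tgm1 and Lor; 1 result that this rule names is not reported here. Same-numbered samples shared slide column and dye, and their deviations had correlations of 0.49, 0.68, 0.33 and 0.36 for replicates 1 to 4. Once the dye effect was removed these were 0.13, 0.46, 0.13 and 0.46. The values for replicates 1 and 3, and for 2 and 4, are equal because each genotype has 2 arrays a dye. Whether the numbers pair the samples beyond the shared slide column and dye was not tested. Alternatives were another background correction, offset 0, the Feature Extraction ratio, the deposited table, the sample channel alone, median centring, Aquantile, other filters and probe rules, no dye term, a replicate block, array weights, an intensity trend, a Y-linked covariate, the methods' t-test, each dye alone and each array left out. The p-values and the authors' own error columns in the scanner tables were not used.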

Additional observations from a re-analysis of the deposited data

Results flagged for a closer look

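Among 72 groups of 4 arrays, for the members and the other genes named by rule, 1 had an array far from the rest, where chance gives about 1 in 20. It was not a member: for the basal integrin gene Itga6, EED cKO replicate 4 had a log2 ratio of 0.46 and the other 3 EED cKO arrays had 0.68 to 0.70, and the gap was 0.906 of the range of the group, above the critical value for groups of this size. All 4 values lay below those of the control arrays. Each group held arrays of both dyes, and the dye effect was left in these values. An outlying array of a gene that divides by dye, such as Krt1, could therefore go unflagged.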

How the results depend on the processing

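The number of members called, all of them higher, fell from 3 to 1 with median centring, without the dye term, in the methods' t-test after Benjamini-Hochberg adjustment and within Cy5, and to 0 within Cy3; it ranged from 1 to 3 over the fits that left out 1 array (1 without EED cKO replicate 3, control replicate 2 or control replicate 4). The number changed at least 2-fold fell from 1 to 0 with median centring and within Cy3 and ranged from 0 to 1 over the fits that left out 1 array (0 without EED cKO replicate 2 or 4 or control replicate 2 or 4), since Krt2 lies on that limit. With the replicate block, which treats same-numbered samples as pairs, 3 members were called, the same 3, and no other call on a member changed. The replicate block called 5982 of all 23135 targets. The methods' t-test at an unadjusted p below 0.05 called 3 members, beside 5613 of all 23135 targets. Among 280 results of members under alternatives, 240 kept direction and side of the threshold, 24 kept direction and lost the call, 2 gained one and 14 changed sign. Those 14 were Krt1 (-0.14) and Krt10 (-0.27) on the sample channel alone, Casp14 with median centring (-0.12) and on the sample channel alone (-0.70), and Tgm3, whose value of -0.0012 became 0.0202 without background correction, 0.0432 with offset 0, 0.0098 with the Feature Extraction ratio or the deposited table, 0.0574 on the sample channel alone, 0.0063 with array weights, 0.0127 within Cy5, and -0.0186 to 0.0218 over the fits that left out 1 array (0.0056 without control replicate 4). The cause was not tested. Of 725 results of other named genes, 620 kept direction and side, 105 lost the call and 0 changed sign. Both counts include alternatives that keep the fold change by construction and could not change its sign. These are Aquantile, both filters, each probe tested on its own, no dye term, the replicate block, the intensity trend and the t-tests. The Feature Extraction ratio and the deposited table hold nearly the same values and count as separate alternatives. Over all targets the calls numbered 5030, but 2555 with median centring, 2357 without the dye term, 2802 with the Y-linked covariate, 907 in the adjusted t-test, 495 within Cy3, 2466 within Cy5, and 2725 to 5048 with 1 array left out. Called genes of the related lists also fell in number, with the Feature Extraction ratio or the deposited table (partners 5 in place of 8, proteases and inhibitors 2 in place of 8, basal genes 3 in place of 7, other keratins 7 in place of 11), with median centring (4, 2 and 4 in the first 3 of these) and within Cy3 (2, 1, 0 and 5, and 3 of the regulators in place of 8). The adjusted t-test called 1 partner, 1 protease or inhibitor, 2 regulators, 1 basal gene and 6 other keratins. Basal genes fell to 2 with offset 0, without the dye term and with the Y-linked covariate, proteases and inhibitors to 4 with offset 0 and without the dye term, partners to 5 with offset 0, and regulators to 5 without the dye term. The sample channel alone called 16 partners and 5 proteases or inhibitors. Aquantile leaves the ratios as they are by construction. The reference signal was above background on 5 of 8 arrays for Krt77 and on 6 of 8 for Ivl, which limits the precision of their ratios.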
